A study of Homo sapiens with 30 samples.

Results

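The loci of PGBD5 and TAF7 were described in HEK293T, a line derived from human embryonic kidney and transformed with adenovirus DNA and the SV40 large T antigen. Members were the genes' ChIP-seq peaks, taken when they overlapped the annotated gene span plus 50 kb each side for PGBD5 or plus 10 kb each side for TAF7, and they numbered 102 of the 431864 peaks in 5 lists. The PGBD5 window held 8, 6 and 9 H3K27me3 peaks in NC, ΔLINC00641 and ΔSETD5-AS1, and 5 H3K9me3 peaks in each of NC and ΔLINC00662. The TAF7 window held 37 and 30 H3K9me3 peaks in NC and ΔLINC00662, and 0, 1 and 1 H3K27me3 peaks.

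All cells were transfected with antisense oligonucleotides (ASOs) and collected 48 h later. H3K27me3 was profiled in cells given a negative control ASO (NC), 1 ASO against the long noncoding RNA LINC00641 (ΔLINC00641) or 1 ASO against SETD5-AS1 (ΔSETD5-AS1). H3K9me3 was profiled in a second NC group and in cells given a mix of ASOs against LINC00662 (ΔLINC00662). Each of the 5 ChIP groups had 3 replicates and 3 matched inputs, which the authors merged before peaks were called. Each value below therefore comes from a single pooled list, without an error between replicates and without a test between groups. Intervals given for log2 ratios cover the counting error of the summit fragments only. Both H3K27me3 depletions were compared with the same NC list. The study reports higher transcription of PGBD5 and TAF7 after depletion, and it measured the mark there as ChIP-seq signal in a boxed region. It shows both genes as examples of loci with a reduced mark, from these same data. Their places among all genes or all peak pairs are therefore descriptive only. Peak lists hold no RNA, so neither the identity of the cells nor the loss of the targeted RNAs was checked here.

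H3K27me3 is written by Polycomb repressive complex 2 and marks genes held silent in a given cell type. H3K9me3 is written by enzymes such as SETDB1 and the SUV39H pair, and is the mark of constitutive heterochromatin, silenced repeats and clusters of related genes. PGBD5 is a domesticated DNA transposase of the piggyBac family that is expressed mainly in the brain. TAF7 is a subunit of TFIID, the general factor that recognises core promoters for RNA polymerase II. Its coding sequence lies in a single exon among the clustered protocadherin genes, which encode neuronal adhesion proteins.

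PGBD5 lies on the minus strand of chromosome 1 at chr1:230450236-230562078 (hg19, 111843 bp), and its start site is the last of these bases. The only H3K27me3 peak inside the gene fell in the first intron, which begins 735 bp from the start site. All other H3K27me3 peaks of its window lay upstream, in introns of a divergent lncRNA, ENSG00000282564, which is annotated on the plus strand at chr1:230562237-230777552. No list held a peak in the 50 kb flank beyond the 3′ end of PGBD5, which includes the end of GALNT2. TAF7 lies on the minus strand of chromosome 5 at chr5:140639452-140700351 (hg19, 60900 bp). Its principal transcript is the single exon at chr5:140698057-140700351 (2295 bp), with the coding sequence at chr5:140698565-140699611. The rest of the span comes from transcripts without an annotated coding sequence, and it contains SLC25A2, the gene of a mitochondrial ornithine carrier, at chr5:140682202-140683616.

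Sequences at these start sites and at NC summits near them are shown because the covered length around both start sites differed between the lists. All are hg19 sequence read 5′ to 3′ on the minus strand, the strand of both genes, and capitals mark CG dinucleotides. The 250 bases before the PGBD5 start site (chr1:230562079-230562328) held 38 CG dinucleotides, a number reached by 3.28% of 35116 RefSeq promoters (median 11). The same stretch at TAF7 (chr5:140700352-140700601) held 21, reached by 30.2%. RefSeq, whose promoter table is from GRCh38, places both start sites at the same base as the annotation used here. The H3K27me3 summit in the PGBD5 intron is given from chr1:230560752-230560852 and the one upstream from chr1:230562702-230562802. The H3K9me3 summit in the TAF7 coding sequence is given from chr5:140698887-140698987.
PGBD5 upstream: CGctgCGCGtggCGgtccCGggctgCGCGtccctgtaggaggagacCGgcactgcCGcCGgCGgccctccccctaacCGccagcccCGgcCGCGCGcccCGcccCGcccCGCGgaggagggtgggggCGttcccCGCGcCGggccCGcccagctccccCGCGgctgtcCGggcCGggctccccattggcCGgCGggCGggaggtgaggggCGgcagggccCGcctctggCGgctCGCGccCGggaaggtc
PGBD5 intron summit: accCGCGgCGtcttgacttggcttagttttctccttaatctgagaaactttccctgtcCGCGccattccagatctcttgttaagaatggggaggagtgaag
PGBD5 upstream summit: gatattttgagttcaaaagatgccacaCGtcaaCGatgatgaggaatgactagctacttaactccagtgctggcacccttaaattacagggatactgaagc
TAF7 upstream: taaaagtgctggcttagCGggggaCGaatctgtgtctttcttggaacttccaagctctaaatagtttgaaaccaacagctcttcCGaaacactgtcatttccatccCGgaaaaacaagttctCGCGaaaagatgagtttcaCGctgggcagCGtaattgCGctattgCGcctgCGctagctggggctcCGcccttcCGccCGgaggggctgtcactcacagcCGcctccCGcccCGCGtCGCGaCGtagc
TAF7 coding summit: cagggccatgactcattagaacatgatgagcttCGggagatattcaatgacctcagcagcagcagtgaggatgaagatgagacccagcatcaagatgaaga

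The ASOs of the depletions were as follows, 5′ to 3′, with the names of the supplement to the study. Their sites were found by exact match to hg19. The LINC00641 ASO used for ChIP matched an exon at chr14:21668698-21668717, and the SETD5-AS1 ASO matched an exon at chr3:9432018-9432037 of the gene annotated as THUMPD3-AS1. Of the LINC00662 ASOs, the first and the third matched exons at chr19:28284662-28284681 and chr19:28281738-28281757, and the second had no unbroken match in the gene. Which of them made up the mix was not given in the sources used here. Within the PGBD5 window the LINC00641 and SETD5-AS1 ASOs each had at least 5 mismatches to every site on either strand. Within the TAF7 window the LINC00662 ASOs had at least 4.
LINC00641-ASO-2: gatagtggtatagtaactgg
SETD5-AS1-ASO-1: atcaatgaggatgtcatcac
LINC00662-ASO-1: tgtagtctcttatctgcacc
LINC00662-ASO-2: actctgtctcaaataacttg
LINC00662-ASO-3: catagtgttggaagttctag

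Peaks were compared by the base pairs they covered and by fold enrichment, the number of ChIP fragments at the summit over the local input level (1 added to each). Fold enrichment is a ratio to input. The estimated depth of the lists was between 34.6 M and 45.0 M fragments (M stands for 1e6) and was lowest for ΔLINC00662. A summit at the genome-wide input level needed 11 or 12 fragments to be listed. Member summits held between 13 and 60 fragments, so most single values were imprecise. Over all NC peaks, the share without a partner fell with GC content. It ran from 64.8% in the lowest to 33.4% in the highest of 5 GC groups in ΔLINC00641, from 58.6% to 36.7% in ΔSETD5-AS1 and from 77.9% to 48.2% in ΔLINC00662.

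To examine H3K27me3 around PGBD5, peaks of the 3 lists were set side by side over the window of 211843 bp. H3K27me3 peaks covered fewer base pairs in both depletions, and most of this difference lay in the 15 kb upstream of the start site. The gene span held 853 bp in NC and 818 bp in ΔLINC00641, but 474 bp in ΔSETD5-AS1. Over the whole window, covered length was 6630 bp in NC, against 2993 bp in ΔLINC00641 and 4293 bp in ΔSETD5-AS1. The ratio to NC was 0.451 in ΔLINC00641 and 0.648 in ΔSETD5-AS1. Among the 6289 protein-coding genes with H3K27me3 coverage in such a window in NC, the median ratios were 0.853 and 0.866, and coverage was at least 1.25 times lower at 44.7% and 42.9% of genes. Ratios as low as those of PGBD5 were found at 21.9% of the genes in ΔLINC00641 and at 30.6% in ΔSETD5-AS1. PGBD5 thus lay in the lower part of the range but not at its edge. The genes were not matched to PGBD5, since 73.9% of them had no more NC coverage. Over the whole lists, peaks on chromosomes 1 to 22 and X covered 77.4 Mb in NC, 63.8 Mb in ΔLINC00641 and 69.6 Mb in ΔSETD5-AS1.

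**Figure D1:**
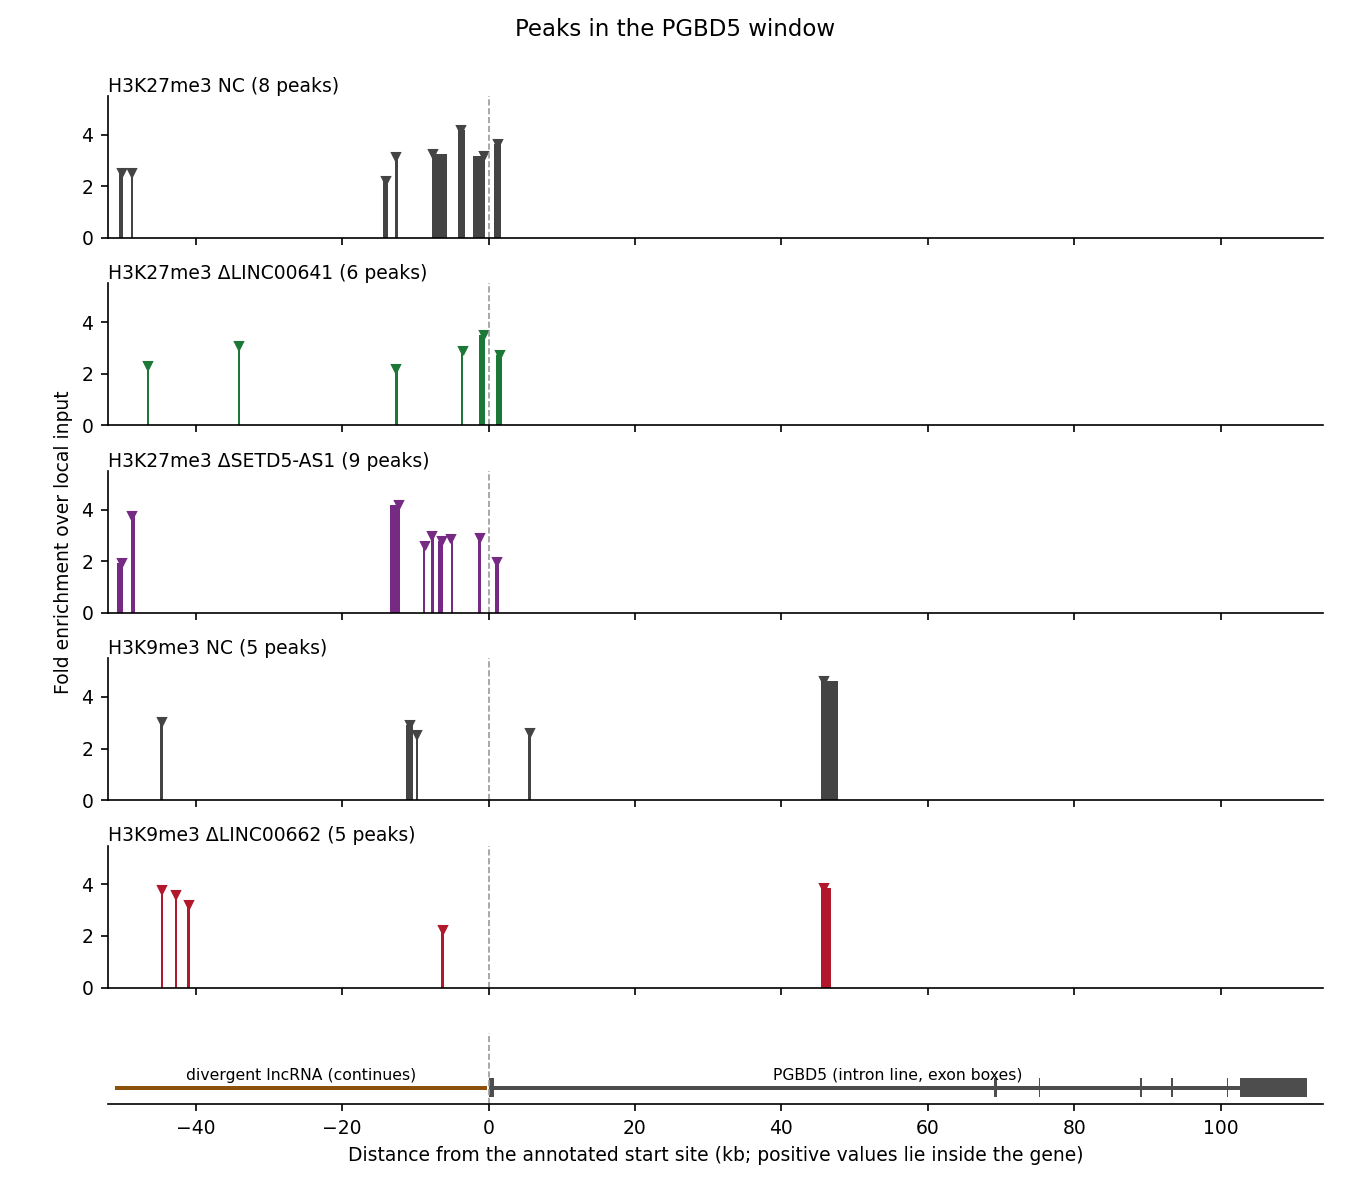
Peaks of the PGBD5 window in the 5 lists, by distance from the start site (kb). The width of each bar is the extent of the peak, its height the fold enrichment over local input, and the triangle the summit. H3K27me3 peaks cluster from 15 kb upstream to the first intron, and beyond 50 kb into the gene no list holds a peak.

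Within the 15 kb upstream of the start site, H3K27me3 peaks covered 36.6% of the sequence in NC (5 peaks, 5493 bp), 10.49% in ΔLINC00641 (3 peaks, 1574 bp) and 21.99% in ΔSETD5-AS1 (6 peaks, 3299 bp). Further upstream the order depended on the window edge. Between 15 kb and 50 kb from the start site, coverage was 284 bp in NC, compared with 601 bp in ΔLINC00641 and 520 bp in ΔSETD5-AS1. Peaks were cut at the edge, which left out nearly all of an NC peak of 547 bp. Most of a ΔSETD5-AS1 peak of 737 bp was left out too. With flanks of 100 kb the window held 7505 bp in NC, 2993 bp in ΔLINC00641 and 5936 bp in ΔSETD5-AS1. Inside the gene span a single peak covered 853, 818 and 474 bp. The ratio for the gene span alone was thus 0.959 in ΔLINC00641, against 0.556 in ΔSETD5-AS1. With peaks of −log10 q of at least 5 only, the ratio over the window was 0.222 in ΔLINC00641 and 0.478 in ΔSETD5-AS1. With peaks within 1 kb of each other merged it was 0.451 and 0.852. The latter was close to the 0.866 of the median gene, which was computed without merging. With flanks of 100 kb the ratio was 0.399 and 0.791.

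**Figure D2:**
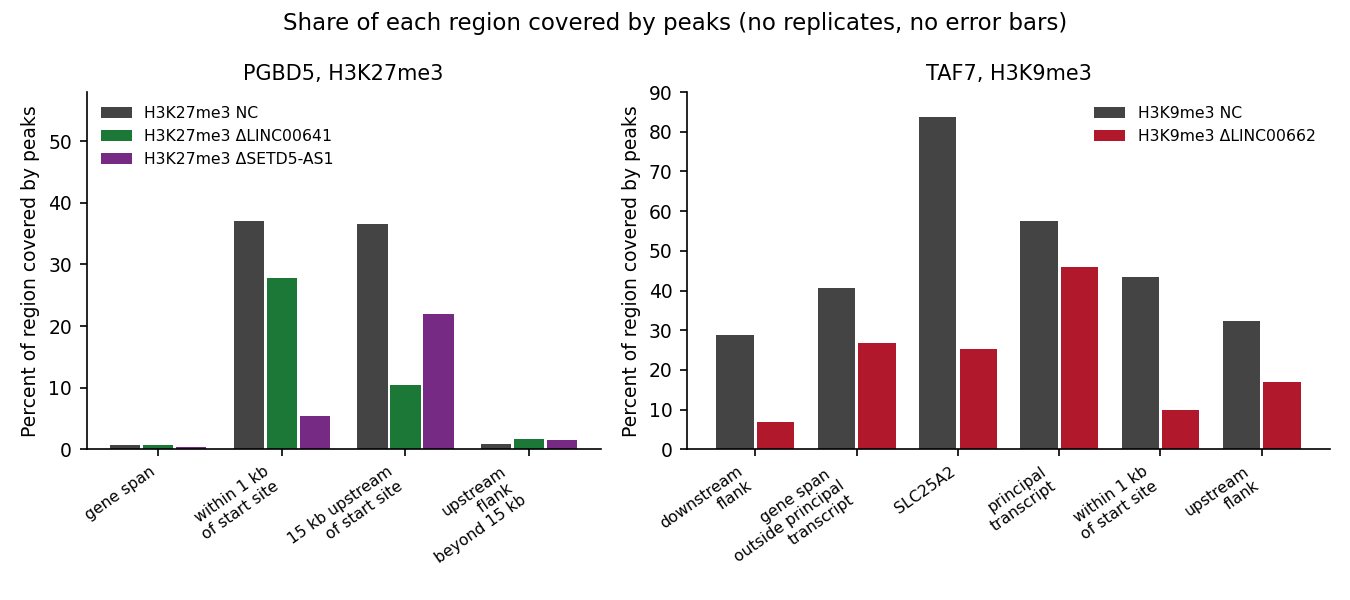
Percent of each region covered by peaks, for H3K27me3 at PGBD5 (left) and H3K9me3 at TAF7 (right). Each bar is 1 pooled list. At PGBD5 the bars of both depletions are below NC except in the flank beyond 15 kb, where peaks are cut at the window edge. At TAF7 the ΔLINC00662 bars are below NC in all 6 regions.

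The start site of PGBD5 itself lay in a gap between peaks in each list. The gap measured 1259 bp in NC, compared with 1443 bp in ΔLINC00641 and 1994 bp in ΔSETD5-AS1. It held the CG-rich sequence printed as PGBD5 upstream. Such a gap with peaks on both sides within 1 kb was found at 18.2% of the 1584 genes with an H3K27me3 peak within 1 kb of the start site in NC, while at 39.7% of these genes the start site was inside a peak. Of the 2001 bp centred on the PGBD5 start site, peaks covered 742 bp in NC, compared with 558 bp in ΔLINC00641 and 108 bp in ΔSETD5-AS1. The edges of the gap lay further apart in ΔSETD5-AS1, mainly on the upstream side, where the nearest peak began 1102 bp from the start site, compared with 471 bp in NC and 480 bp in ΔLINC00641.

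The strongest NC peak near the start site was the one in the first intron, with its summit 1276 bp from the start site (sequence PGBD5 intron summit). Its fold enrichment of 3.66 in NC was paired with 2.73 in ΔLINC00641 and 1.95 in ΔSETD5-AS1. The log2 ratio to NC was −0.42 in ΔLINC00641 (95% counting interval −1.15 to 0.26) and −0.91 in ΔSETD5-AS1 (−1.67 to −0.21). Counting error alone thus spanned 0 in ΔLINC00641 and did not in ΔSETD5-AS1. Of all peaks paired 1 to 1, 13.2% had a log2 ratio as low in ΔLINC00641 and 1.53% in ΔSETD5-AS1. The locus and the peak were both chosen from these data, so these shares are no test of a difference. The local input there was 3.004, 2.73 and 3.008 times the genome-wide level in NC, ΔLINC00641 and ΔSETD5-AS1, so the denominators of NC and ΔSETD5-AS1 were alike relative to depth. Measured by fragments over the genome-wide level, without the local input, the log2 ratios were −0.56 and −0.94.

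The peak on the other side of the start site behaved otherwise. Its NC summit lay 674 bp upstream (sequence PGBD5 upstream summit), with a fold enrichment of 3.19 and 37 fragments. In ΔLINC00641 it also held 37 fragments and the fold enrichment was 3.51, a log2 ratio of 0.14 (−0.56 to 0.84). In ΔSETD5-AS1 the overlapping peak had its summit 1242 bp upstream, 27 fragments and a fold enrichment of 2.91, a log2 ratio of −0.13 (−0.92 to 0.61). Both intervals included 0. What differed was length, since the peak spanned 1603 bp in NC, compared with 845 bp in ΔLINC00641 and 303 bp in ΔSETD5-AS1. If the peak nearest the start site is taken in place of the strongest, the direction in ΔLINC00641 is therefore reversed.

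**Figure D3:**
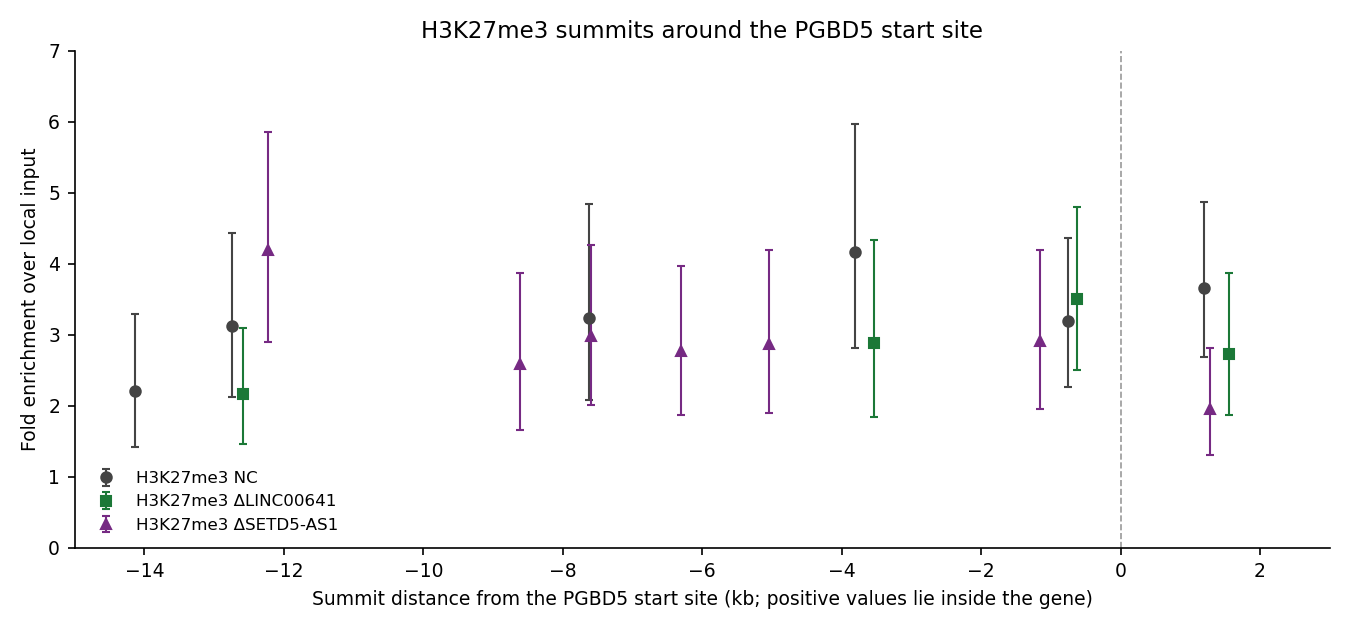
Fold enrichment of H3K27me3 summits from 15 kb upstream of the PGBD5 start site to 3 kb inside the gene, with 95% Poisson intervals of the summit fragments. Symbols of the lists are offset by 0.08 kb. The intervals of NC and the depletions overlap at every paired summit.

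Further upstream, individual peaks went in both directions. The summit 3723 bp upstream, the strongest of the window in NC with a fold enrichment of 4.17 and 28 fragments, was paired with 2.88 in ΔLINC00641 and had no partner in ΔSETD5-AS1. At the same relative input, 16 fragments would have sufficed for a listing in ΔSETD5-AS1, so the fold enrichment there was at most 0.489 times that of NC, unless the enriched stretch was too short to be listed. Beside this NC peak, ΔSETD5-AS1 held a new peak with its summit 5128 bp upstream, a fold enrichment of 2.88 and 25 fragments. The broad NC peak 7543 bp upstream, 1990 bp long with a fold enrichment of 3.24, had no partner in ΔLINC00641. In ΔSETD5-AS1 it was overlapped by 2 short peaks of 706 and 358 bp with fold enrichments of 2.77 and 2.98. The peak 12.7 kb upstream had a fold enrichment of 3.12 in NC, against 2.17 in ΔLINC00641 and 4.19 in ΔSETD5-AS1, where it was the strongest peak of the window and measured 1328 bp, compared with 403 bp in NC. The log2 ratio in ΔSETD5-AS1 was 0.42 (−0.34 to 1.21) and that in ΔLINC00641 −0.53 (−1.33 to 0.27). Near the far edge of the window, the peak 48.7 kb upstream had a fold enrichment of 2.51 in NC and 3.76 in ΔSETD5-AS1, and had no partner in ΔLINC00641.

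Counted over the window, 4 of 8 NC peaks had no overlapping peak in ΔLINC00641 and 2 of 8 had none in ΔSETD5-AS1, against 46.7% and 43.6% of all NC peaks. In ΔLINC00641 2 of 6 peaks were new and in ΔSETD5-AS1 2 of 9, beside 35.5% and 39.5% of the whole lists. Of the pairs that overlapped 1 to 1, 3 of 4 were at least 1.25 times lower in ΔLINC00641 and 0 were as much higher, where 19.4% and 21.6% of all such pairs were. In ΔSETD5-AS1, 2 of 5 were lower and 2 of 5 higher by this measure, beside 25.2% and 15.2% of all pairs. In ΔLINC00641 3 of 4 pairs were shorter and in ΔSETD5-AS1 2 of 5, beside 57.0% and 56.1% of all pairs. The median log2 ratio was −0.47 over 4 pairs (all pairs 0.016) and −0.13 over 5 pairs (all pairs −0.070). Of the 8 NC peaks, 0 fell in the lowest GC group, 1 in the second, 3 in the third, 1 in the fourth and 3 in the highest, and the part of GC content in these differences was not tested.

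Among protein-coding genes with an H3K27me3 peak within 1 kb of the start site in all 3 lists, those most like PGBD5 in the fold enrichment of the strongest such peak were CPLX1, SH2D1A and PRDM11. Likeness was the Euclidean distance on the log2 scale over 3 lists, with 1167 candidate genes. CPLX1, which encodes a regulator of synaptic vesicle fusion, had fold enrichments of 3.54, 3.63 and 2.07 in NC, ΔLINC00641 and ΔSETD5-AS1 (distance 0.106). SH2D1A, an adaptor of lymphocyte signalling, had 3.07, 3.499 and 1.92. PRDM11, a member of the PR domain family, had 3.22, 3.66 and 2.19. The corresponding values of PGBD5 were 3.66, 3.51 and 1.95, since the strongest peak in ΔLINC00641 was the upstream one. Of the other piggyBac-derived genes, PGBD1, PGBD2 and PGBD4 held no H3K27me3 peak in any list, and PGBD3 was not analysed here.

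H3K9me3 at PGBD5 was sparse and in NC shared no base pair with H3K27me3. In NC 5 peaks covered 4511 bp of the window, and in ΔLINC00662 5 peaks covered 2891 bp, a ratio of 0.641. The main one was a broad peak deep in the first intron, with its summit 45.8 kb from the start site in NC. Its fold enrichment was 4.63 with 54 fragments in NC and 3.86 with 39 fragments in ΔLINC00662, a log2 ratio of −0.26 (−0.90 to 0.35). It was 2296 bp long in NC and 1406 bp in ΔLINC00662. A smaller peak 44.7 kb upstream was kept, at 3.02 in NC and 3.78 in ΔLINC00662. The other 3 of 5 NC peaks had no partner, beside 62.5% of all NC peaks, among them one 5723 bp inside the gene with a fold enrichment of 2.60, and 3 of 5 peaks were new in ΔLINC00662, beside 44.7% of its whole list. Of these, 2 lay 41.0 and 42.7 kb upstream. The third lay 6211 bp upstream, with a fold enrichment of 2.24 and 24 fragments, and its 341 bp fell inside the broad H3K27me3 peak of NC. It also shared 251 bp with H3K27me3 peaks in ΔSETD5-AS1. No base pair within 1 kb of the start site was covered by H3K9me3. Of the piggyBac-derived genes, PGBD1 and PGBD4 also had H3K9me3 peaks in the gene span. Coverage of the span was 2.12% in NC and 1.33% in ΔLINC00662 at PGBD1, 10.6% and 5.32% at PGBD4, and 2.52% and 1.26% at PGBD5. PGBD2 had none.

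The TAF7 comparison asked what LINC00662 depletion left of H3K9me3 at this gene. H3K9me3 covered fewer base pairs in ΔLINC00662 in each region of the TAF7 window. The ratio to NC was lowest beside the start site and in the 10 kb beyond the 3′ end. In base pairs the difference was largest in the gene span, with 25089 bp in NC and 16711 bp in ΔLINC00662. Even so, the window kept a larger share of its coverage than the median gene, though a share close to that of the whole list. Of its peaks it kept a larger share than the whole list. These baselines were not matched to TAF7, since 99.4% of the genes compared had no more NC coverage. NC peaks of the window had a median length of 801 bp, beside 478 bp in the whole list. Covered length was 31213 bp in NC and 19089 bp in ΔLINC00662, which is 38.6% and 23.6% of the window and a ratio of 0.612. Over the 9050 protein-coding genes with H3K9me3 coverage in such a window in NC, the median ratio was 0.480, and coverage was at least 1.25 times lower at 76.8% of genes. A ratio at or below that of TAF7 was found at 63.0% of them. Over the whole lists, peaks on chromosomes 1 to 22 and X covered 54.0 Mb in NC and 32.1 Mb in ΔLINC00662. That difference was close in proportion to the one at TAF7. With the principal transcript plus 10 kb each side in place of the gene span, the ratio was 0.610.

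**Figure D4:**
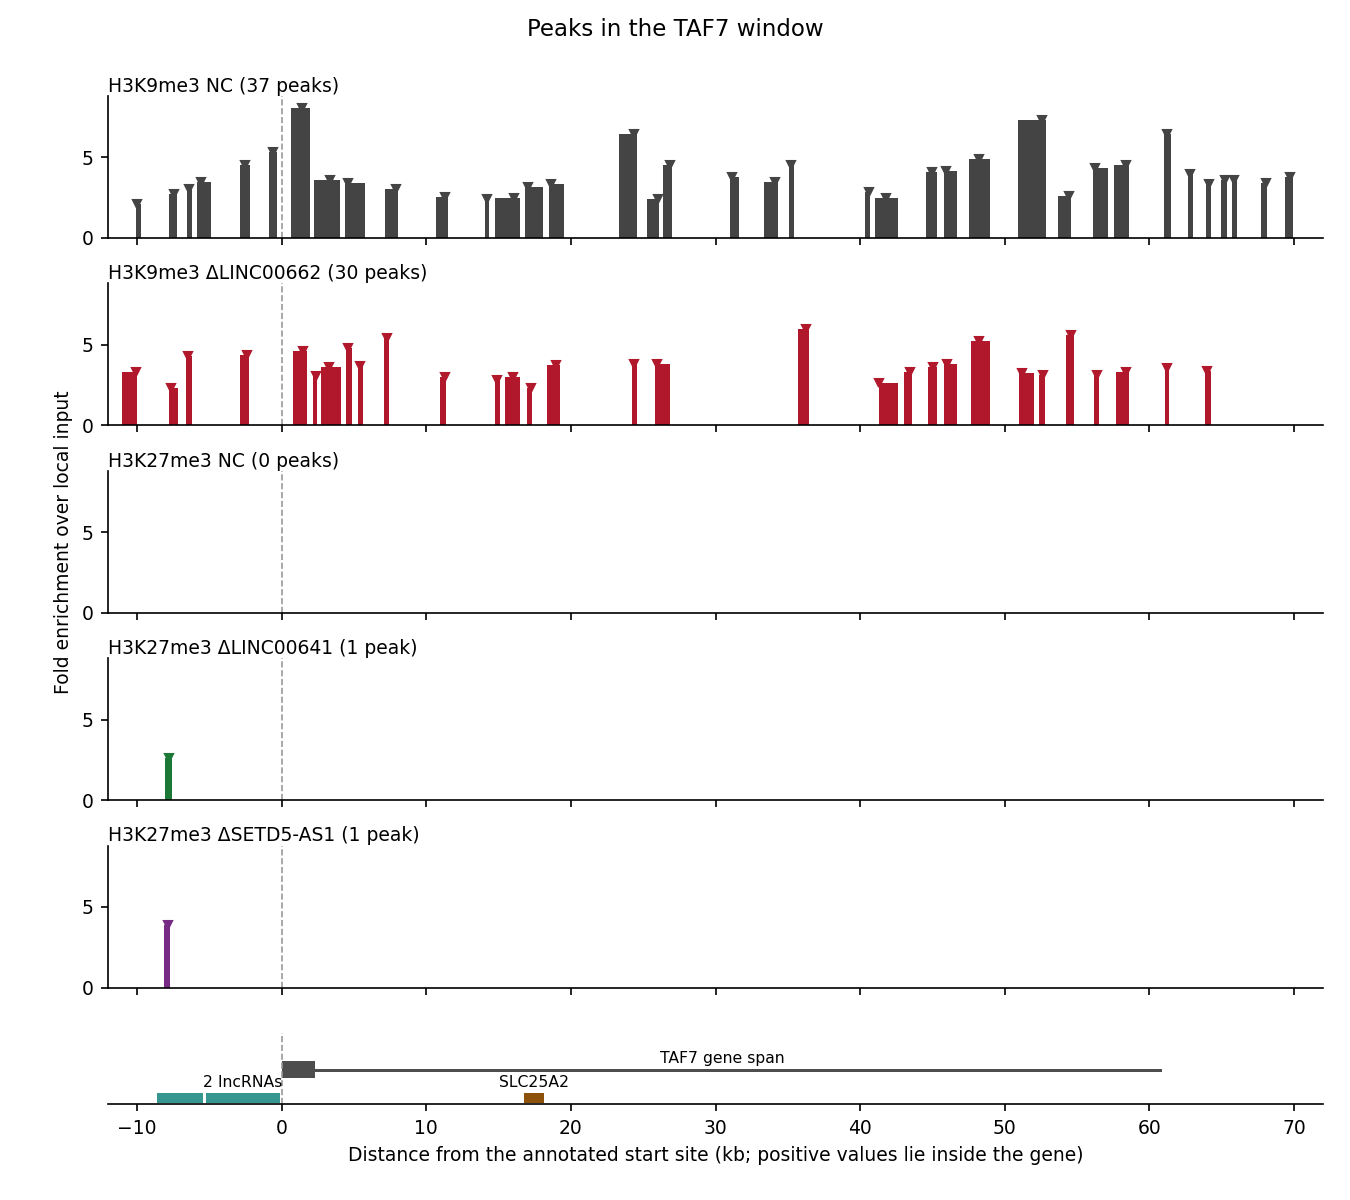
Peaks of the TAF7 window in the 5 lists, by distance from the start site (kb), drawn as in the map of the PGBD5 window. H3K9me3 peaks run through the whole span in NC (37 peaks) and in ΔLINC00662 (30 peaks), and H3K27me3 has 1 peak in each depletion and 0 in NC.

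TAF7 was among the genes most covered by H3K9me3 in both lists. Of 14863 protein-coding genes with a span of at least 10 kb, 96 were covered to a greater share than TAF7 in NC (0.646%) and 70 in ΔLINC00662 (0.471%). The genes most like it in percent of the span covered in NC and ΔLINC00662 (Euclidean distance over 2 lists, 14861 candidates) were ZNF442, with 40.9% and 27.6%, ZNF850, with 42.4% and 27.2%, and ENSG00000286132, with 40.2% and 28.5%. ZNF442 and ZNF850 encode zinc finger proteins, and all 3 genes lie on chromosome 19. The values of TAF7 were 41.2% and 27.4%.

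Of 37 NC peaks in the TAF7 window, 12 had no overlapping peak in ΔLINC00662, against 62.5% of all NC peaks. The share retained was 67.6% (Wilson 95% interval 51.5 to 80.4%, which takes neighbouring peaks of 1 list as independent and is not an error between replicates). Of 30 peaks in ΔLINC00662 2 were new (6.67%), beside 44.7% of the whole list. With an overlap of at least 50% of the NC peak required, 45.9% were retained, beside 24.95% of all NC peaks. Retention by GC group of the NC peaks, from the lowest to the highest, was 6 of 10, 8 of 13, 7 of 8, 3 of 4 and 1 of 2, and the part of GC content was not tested. The NC peaks kept had a median length of 902 bp and 27 fragments at the summit, and those lost 398.5 bp and 19.5 fragments. Lost peaks were thus shorter by the median and held fewer fragments, but their median fold enrichment of 3.59 was not below the 3.40 of those kept. The longest of them measured 969 bp, and the strongest lay beside the start site.

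This strongest lost peak had its NC summit 585 bp upstream of the TAF7 start site, in an intron of the lncRNA ENSG00000288095. It held 60 fragments, the most of any member peak, with a fold enrichment of 5.33, a −log10 q of 22.2 and a length of 536 bp. At the same relative input, 19 fragments would have sufficed for a listing in ΔLINC00662. The fold enrichment there was therefore at most 0.375 times that of NC, provided that the input kept its ratio to the genome-wide level and the enriched stretch was not too short. Among all 83193 NC peaks, 668 had a −log10 q at least as large, and 24 of these (3.59%) had no partner in ΔLINC00662. The local input at this summit in NC was 2.43 times the genome-wide level, and its part in the loss was not tested.

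On the other side of the start site, the strongest H3K9me3 peak of the window lay in the TAF7 coding sequence (sequence TAF7 coding summit). Its summit was 1414 bp from the start site in NC, with a fold enrichment of 8.07, 57 fragments and a length of 1295 bp. It overlapped a peak in ΔLINC00662 with its summit at 1506 bp, a fold enrichment of 4.60, 27 fragments and a length of 942 bp. The log2 ratio was −0.81 (95% counting interval −1.55 to −0.15), and 3.37% of all 1:1 pairs had a ratio as low. Next upstream of the lost peak, the one 2497 bp from the start site was nearly the same in both lists, with fold enrichments of 4.50 and 4.36 and lengths of 639 and 620 bp.

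As at PGBD5, the TAF7 start site lay in a gap between peaks, with the sequence printed as TAF7 upstream inside it. The gap was 1002 bp in NC and 3037 bp in ΔLINC00662. A gap with H3K9me3 peaks on both sides within 1 kb was seen at 9.76% of the 1148 genes with an H3K9me3 peak within 1 kb of the start site in NC. Peaks covered 870 of the 2001 bp around the TAF7 start site in NC and 196 bp in ΔLINC00662, a ratio of 0.225. Over the principal transcript as a whole the ratio was 0.796 (1321 and 1051 bp), since the coding peak was kept.

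Across the TAF7 window, flanks included, the paired peaks differed in length more than in height. Over the 18 peaks paired 1 to 1 in the window, 10 had a lower and 8 a higher fold enrichment in ΔLINC00662, beside 47.7% of all such pairs that were lower. The median log2 ratio was −0.085, and all 27575 pairs had a median of 0.027. By at least 1.25 times, 6 were lower and 3 higher, beside 21.6% and 25.1% of all pairs. The median log2 ratio is near 0 and changed sign, to 0.0097, when peaks were paired by summits within 500 bp. By contrast 14 of 18 were shorter, with a median length ratio of 0.812. This too was close to the lists as a whole, where 68.6% of pairs were shorter and the median ratio was 0.824.

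**Figure D5:**
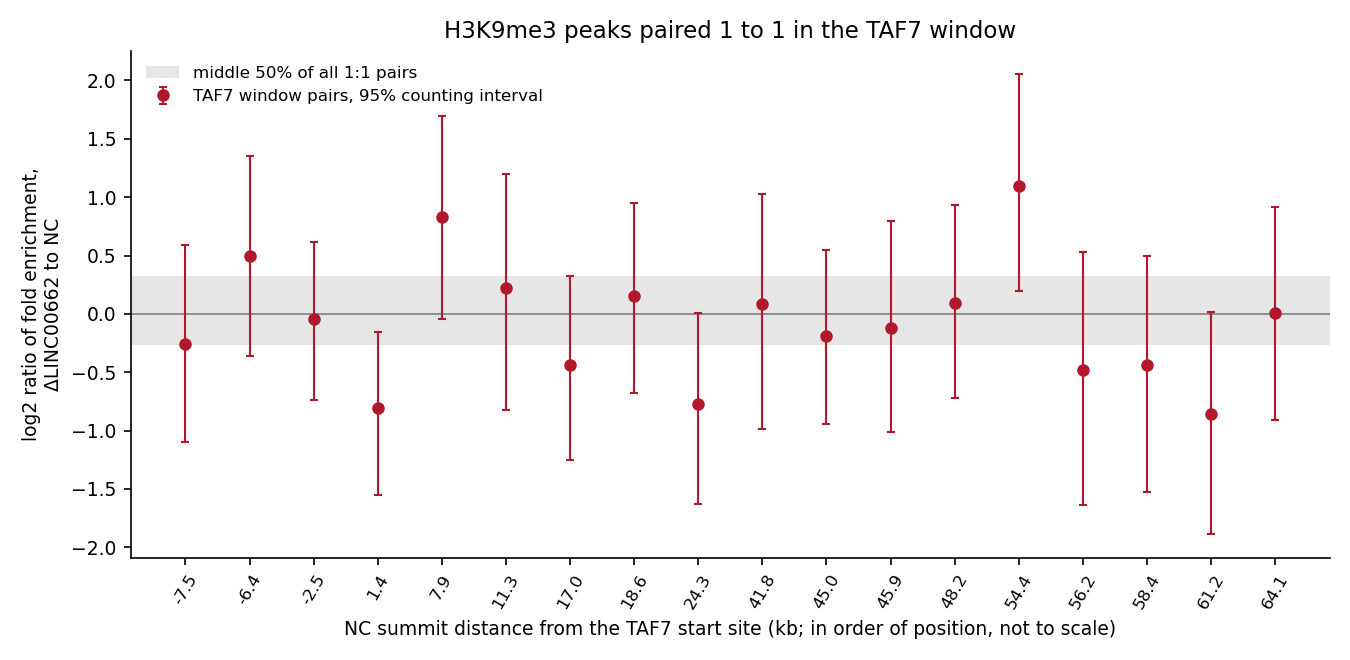
The log2 ratio of fold enrichment, ΔLINC00662 to NC, for the 18 H3K9me3 peaks paired 1 to 1 in the TAF7 window, in order of position. Bars are 95% counting intervals and the grey band the middle 50% of all 1:1 pairs. The interval lies below 0 at the coding peak and above 0 at 1 peak 54.4 kb into the span.

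Single peaks of the span differed in both directions. The peak 54.4 kb from the start site had a fold enrichment of 2.62 in NC and 5.61 in ΔLINC00662, a log2 ratio of 1.098 (0.20 to 2.06), and was 872 bp long in NC and 551 bp in ΔLINC00662. Its summit fragments were 19 and 25. Its local input was 1.54 and 1.04 times the genome-wide level, so the numerator and the denominator both differed. Its neighbour 52.6 kb from the start site, with a fold enrichment of 7.32 the second strongest in NC, was overlapped by 2 peaks of 3.10 and 3.23, log2 ratios of −1.24 (−2.004 to −0.53) and −1.18 (−2.05 to −0.42). Local input there was 1.103 times the genome-wide level in NC and 2.39 and 1.66 times in ΔLINC00662. Measured by fragments over the genome-wide level, the log2 ratios were −0.26 and −0.67. The strongest peak in ΔLINC00662, 36.3 kb from the start site with a fold enrichment of 6.00 and 26 fragments, had no partner in NC. At the same relative input 12 fragments would have sufficed for a listing in NC. The adjacent NC peak, 35.2 kb from the start site with a fold enrichment of 4.53 and 23 fragments, in turn had no partner in ΔLINC00662. At SLC25A2, which lies inside the span, the single H3K9me3 peak over the gene covered 1186 bp in NC and 356 bp in ΔLINC00662, with fold enrichments of 3.15 and 2.33 and a log2 ratio of −0.44 (−1.26 to 0.33).

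The flanks of TAF7 differed from each other. In the 10 kb beyond the 3′ end, 7 NC peaks covered 2891 bp and 2 peaks in ΔLINC00662 covered 681 bp, a ratio of 0.236. The 5 lost there had 17 to 20 fragments in NC, at the genome-wide input level. In the 10 kb upstream, coverage was 3233 and 1697 bp, a ratio of 0.525. Over the lncRNA ENSG00000272070, the NC peak 5575 bp upstream of the start site, with a fold enrichment of 3.47, had no partner. The peak at 6366 bp had fold enrichments of 3.03 in NC and 4.27 in ΔLINC00662, and the one at 7459 bp 2.73 and 2.28. The peak over the first coding exon of the protocadherin gene PCDHGA1 had fold enrichments of 2.10 in NC and 3.31 in ΔLINC00662, where it also overlapped an NC peak of 6.10 that lay outside the window.

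Among the 17 TFIID subunit genes examined, TAF7 had the largest share of its span covered by H3K9me3 in both lists. Peaks were found in the span of 6 genes in NC (TAF1, TAF2, TAF3, TAF4, TAF4B and TAF7) and of 7 in ΔLINC00662, when TAF7L was added. These were 35.3% and 41.2% of the list, beside 32.2% and 27.9% of 20098 protein-coding genes. After TAF7, the most covered in NC were TAF4B, the paralogue of TAF4, with 5.48% in NC and 2.39% in ΔLINC00662, and TAF1, the largest subunit, with 2.44% and 2.16%. TAF7L, the X-linked paralogue of TAF7, had 0 H3K9me3 peaks in NC and 3 in ΔLINC00662, where its 3.72% of the span came next after TAF7. TAF7 was the only subunit with an H3K9me3 peak within 1 kb of the start site in NC, and TAF7L joined it in ΔLINC00662. That is 5.88% and 11.8% of the subunits, beside 5.71% and 4.67% of all protein-coding genes. H3K27me3 was found in the spans of TAF1 and TAF7L in all 3 lists and of TAF9B in both depletions, all on chromosome X. The shares were 11.8%, 17.6% and 17.6% in NC, ΔLINC00641 and ΔSETD5-AS1, beside 14.0%, 14.6% and 14.5% of all protein-coding genes. Coverage of TAF7L was 10.4% in NC, against 8.95% in ΔLINC00641 and 8.68% in ΔSETD5-AS1. That of TAF1 was 9.74%, 12.8% and 7.14%, higher than NC in ΔLINC00641 and lower in ΔSETD5-AS1. The span of TAF7 held no H3K27me3 peak in any list.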

How the data were processed

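H3K27me3 and H3K9me3 ChIP-seq of HEK293T cells gave 30 samples in 10 groups of 3 replicates, grouped by their titles. Per the labels and the study's methods, the reads were trimmed (Cutadapt 3.3), aligned by Bowtie2 2.4.2 to hg19, cleared of duplicates by GATK and merged over the replicates of a group, after which the authors ran MACS2 2.2.7.1 on ChIP against input. The deposited lists give for each peak the fold enrichment, a ratio of summit fragments to local input with 1 added to each. They also hold the authors' −log10 p-value, −log10 q-value and a score that was not used. Summit fragments and local input were solved from fold enrichment and −log10 p, and 100% of peaks gave a whole number (tolerance 5% of a step). The functions were tested on simulated data and recovered 100% of fragment numbers in each simulated list. Depth is an estimate from the genome-wide input level.

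Genes came from the GENCODE 44 annotation in its GRCh37 version, which uses hg19 coordinates on the main chromosomes. Peaks on chromosomes 1 to 22 and X were paired by an overlap of at least 1 bp. The 95% intervals were exact binomial for ratios of summit fragments, Poisson for the fragments of single summits and Wilson for shares. That of the TAF7 median log2 ratio, −0.44 to 0.15, was read from the ranked values of the 18 pairs. It takes neighbouring peaks of 1 list as independent. The limits for unpaired peaks are the fewest fragments called in the other list at the same input relative to its genome-wide level. Named were PGBD5, TAF7, genes overlapping their windows and a peak there, the piggyBac-derived genes, the TFIID subunits, and the 3 genes most like each member. The members and lists were chosen with earlier results of these data known. The alternatives tried were only the peaks with −log10 q of 5 or more, the strongest peaks in equal number, merging within 1 kb, other windows, pairing by summits within 500 bp or by 50% overlap, fragments over the genome-wide level, and leaving out peaks with input over 5 times that level. The sequence of 1 summit is not reported here. The software was Python 3.11.15 with scipy 1.17.1, numpy 2.4.6, pandas 2.3.3 and matplotlib 3.10.9.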

Additional observations from a re-analysis of the deposited data

Results flagged for a closer look

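H3K27me3 peaks appeared in the TAF7 window after both H3K27me3 depletions, although the NC list held none there. In ΔLINC00641 the peak had its summit 7812 bp upstream of the TAF7 start site, with a fold enrichment of 2.63, 14 fragments and a length of 445 bp. In ΔSETD5-AS1 it lay 7851 bp upstream, with a fold enrichment of 3.86, 20 fragments and a length of 400 bp. Both lay over an exon of the lncRNA ENSG00000272070, and both overlapped H3K9me3 peaks, by 153 and 56 bp in the H3K9me3 NC list. They are listed because the window served the H3K9me3 comparison and H3K27me3 was outside it. New peaks made up 35.5% of the whole ΔLINC00641 list and 39.5% of the whole ΔSETD5-AS1 list. At the same relative input, 13 and 11 fragments would have sufficed for a listing in NC. The NC fold enrichment was therefore at most 0.854 and 0.587 times these values, unless the enriched stretch was too short to be listed. The depletions share that NC list, and the difference was not tested.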

How the results depend on the processing

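Of 39 alternative values for 7 results, 33 kept their direction and stayed within 1.5 times the value (ratios of covered length) or within its 95% interval (other results), 4 lay outside and 2 reversed. The PGBD5 H3K27me3 covered length ratio in ΔLINC00641 was 0.222 with peaks of −log10 q of at least 5 and 0.959 over the gene span without flanks, against 0.451. Taking the peak nearest the PGBD5 start site gave log2 ratios of 0.14 in ΔLINC00641, which reversed the direction, and −0.13 in ΔSETD5-AS1. At TAF7, 45.9% of NC peaks were retained with an overlap of at least 50%, and the median log2 ratio was 0.0097, reversed in sign, with summits within 500 bp. Within those bounds values still ranged widely, from 0.478 to 0.852 for the PGBD5 ratio in ΔSETD5-AS1 and from 0.551 to 0.720 for the TAF7 ratio, and the TAF7 median reached −0.25 when both lists were limited to the same number of peaks. The share of TAF7 peaks retained was above that of all NC peaks in each of 7 settings compared. At the overlap of 50% it was 45.9% against 24.95%. None of these settings matched the peaks for length or coverage. Apart from the peak choice, these alternatives change which peaks are counted or paired, and the cause was not tested further. No paired analysis was possible because each list pools its group's replicates, and for the same reason leaving out each replicate was not run. A single list per group cannot show whether any difference exceeds that between replicates. Peaks near 11 or 12 fragments are at the limit of listing, so loss or gain of a weak peak can follow from depth, which was lowest in ΔLINC00662.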

Other observations

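The protocadherin clusters beside TAF7 were summarised after the values of TAF7 had been seen. TAF7 lies between the PCDHB genes (16 genes, 198 kb) and the PCDHG genes (22 genes, 182 kb), and the PCDHA genes (16 genes, 226 kb) lie further on the PCDHB side. H3K9me3 peaks covered 26.4% of the PCDHB cluster in NC and 19.05% in ΔLINC00662, 32.1% and 23.9% of the PCDHG cluster, and 14.1% and 10.98% of the PCDHA cluster. Peak numbers differed less, with 59 and 56, 49 and 46, and 38 and 33. The TAF7 span was thus covered to a greater share than any of the clusters in both lists. Each cluster kept a larger share of its NC coverage than the TAF7 span, where the ratio was 0.666. The whole lists, with 54.0 Mb in NC and 32.1 Mb in ΔLINC00662, kept a smaller share than the span and the clusters. H3K27me3 was also present in the clusters, where the TAF7 span had none. It covered 5.28% of the PCDHB cluster in NC, against 1.63% in ΔLINC00641 and 2.96% in ΔSETD5-AS1. Coverage of the PCDHG cluster was 1.84%, 0.150% and 0.178%, and that of the PCDHA cluster 1.95%, 0.615% and 1.41%. These shares rest on few peaks, with 19, 7 and 10 in the PCDHB, 5, 1 and 1 in the PCDHG and 11, 4 and 7 in the PCDHA cluster. Whole-list H3K27me3 coverage was 77.4, 63.8 and 69.6 Mb in the same order of lists.

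The third LINC00662 ASO matched 19 of 20 bases at chr1:230432640-230432659, in the flank beyond the 3′ end of PGBD5 and on the strand of the gene. The mismatch was A19G, with positions counted from 1 at the 5′ end of the ASO. The nearest H3K9me3 peak of the window was 81.8 kb away in NC and 82.6 kb away in ΔLINC00662.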
